A study of Homo sapiens with 3 samples.

Results

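MDA-MB-231 is a basal-type human breast cancer line that is usually called estrogen receptor negative. Here 3 h of estradiol, the main natural estrogen, was set against vehicle by the difference between the estradiol array and the vehicle array, probe set by probe set. All 41097 of the 54675 probe sets on the array that carry exactly 1 gene symbol in the platform annotation were included, whatever their values, and they name 19775 of the 21357 genes on it. The vehicle cells received 0.1% ethanol and the estradiol cells received 1 µM estradiol. Another culture received 1 µM tamoxifen for the same time, and its values are given beside the others for comparison. All 3 cultures were of the unmodified line and had first spent 4 h in medium with 10% charcoal-stripped serum, which has few steroids, and they stayed in such serum during the treatment.

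Each culture is represented by 1 array and by 1 cell line. No difference below has a replicate, an error or a p-value, and every difference compares 2 arrays and not 2 conditions. Precision is limited by the number of arrays, and in a bulk sample fewer cells with a transcript and less transcript per cell cannot be told apart. The deposited values are centred on a baseline that the sources used here do not state. They were taken as log2 numbers with higher meaning more RNA, and neither is stated with them, so every fold and every direction below rests on that assumption. A value of 0 therefore marks the baseline and not absence, and the levels of different genes cannot be set against each other. On this scale a difference of 1 is a 2-fold difference.

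Classical estrogen signalling runs through the nuclear receptors encoded by ESR1 and ESR2, which bind DNA when they hold estradiol and recruit coactivators to genes such as PGR, TFF1 and GREB1. A membrane receptor, GPER1, can also bind estradiol, and it is known to act through cyclic AMP, release of EGF receptor ligands and the ERK kinases. Within hours such signals can reach immediate early genes, which are transcribed without new protein synthesis, and the NF-kB factors, which drive chemokine and cytokine genes. MDA-MB-231 cells are known for high basal NF-kB activity and for secretion of inflammatory cytokines.

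The genes furthest above vehicle included 3 neutrophil-attracting chemokine genes (CXCL8, CXCL1 and CXCL2), the inflammatory cytokine gene IL6 and PTGS2, the inducible cyclooxygenase. The 250 bases upstream of their transcription starts are shown because these 5 genes carry the main result. The sequences are those of RefSeq on build GRCh38.p14, written 5′ to 3′ on the strand of the gene, and the last base lies just before the start. Capitals mark the letters GGNNTTTCC, a core bound by NF-kB factors, and TGACGT, one arm of the element bound by CREB, on either strand.

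CXCL8, chr4:73740319-73740568, strand plus: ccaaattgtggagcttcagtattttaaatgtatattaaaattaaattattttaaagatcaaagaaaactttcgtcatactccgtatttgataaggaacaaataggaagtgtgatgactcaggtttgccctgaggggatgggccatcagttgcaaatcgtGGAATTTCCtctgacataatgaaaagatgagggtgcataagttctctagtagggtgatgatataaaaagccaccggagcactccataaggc
CXCL1, chr4:73869143-73869392, strand plus: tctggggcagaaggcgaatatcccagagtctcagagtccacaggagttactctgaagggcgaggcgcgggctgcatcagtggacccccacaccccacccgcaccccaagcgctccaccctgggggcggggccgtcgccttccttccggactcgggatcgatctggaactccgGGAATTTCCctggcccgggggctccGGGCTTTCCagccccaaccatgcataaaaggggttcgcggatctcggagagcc
CXCL2, chr4:74099196-74099445, strand minus: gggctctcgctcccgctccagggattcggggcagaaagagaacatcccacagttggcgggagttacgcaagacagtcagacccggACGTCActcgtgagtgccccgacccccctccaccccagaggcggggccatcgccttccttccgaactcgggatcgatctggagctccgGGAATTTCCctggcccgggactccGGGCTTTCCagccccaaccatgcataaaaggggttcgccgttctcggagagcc
IL6, chr7:22726950-22727199, strand plus: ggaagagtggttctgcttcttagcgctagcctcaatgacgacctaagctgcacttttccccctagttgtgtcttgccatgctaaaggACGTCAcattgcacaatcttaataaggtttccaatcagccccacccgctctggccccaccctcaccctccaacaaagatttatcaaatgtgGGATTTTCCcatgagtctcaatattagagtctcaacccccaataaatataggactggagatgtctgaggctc
PTGS2, chr1:186680424-186680673, strand minus: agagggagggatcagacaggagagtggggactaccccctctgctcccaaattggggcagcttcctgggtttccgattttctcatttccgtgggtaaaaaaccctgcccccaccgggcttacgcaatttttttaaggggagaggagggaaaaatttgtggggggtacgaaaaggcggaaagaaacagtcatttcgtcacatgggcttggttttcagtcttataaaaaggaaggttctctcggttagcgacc

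In CXCL8 the capitals lie 91 to 83 bases before the start, and the AP-1 letters TGANTCA stand further upstream at 137 to 131. CXCL1 and CXCL2 each hold 2 NF-kB cores, at 78 to 70 and 53 to 45 bases in CXCL1 and at 77 to 69 and 53 to 45 in CXCL2. IL6 holds 1 at 72 to 64 and the CREB arm at 163 to 158, next to the C/EBP letters TTGCNNAA at 155 to 148. CXCL2 has the CREB arm at 165 to 160. PTGS2 has neither of the capitalised motifs in this window, and its C/EBP letters lie at 133 to 126. The letters searched for match only some forms of these elements, so PTGS2 may hold other forms that were not marked. The NF-kB and CREB letters were widened after these promoters had been looked at, so the shares that follow are a description. Of all 27305 promoters of 250 bases in the RefSeq table, 1497 (5.48%) held the NF-kB letters, against 576 of 9852 genes above the brightness floor explained below (5.85%) and 11 of 225 genes higher in both versions of the comparison (4.89%). The full palindrome of the estrogen response element stood in 12 of the 27305 promoters (0.0439%) and in 0 of the 225 higher genes. A match in these windows is a description and says nothing of binding.

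Before the differences are described, the vehicle column needs a remark. Its values spread less than those of the other columns, with SDs over the members of 0.20 for vehicle, 0.47 for estradiol and 0.45 for tamoxifen. Among 334 genes whose vehicle value was at least 0.5 in size, the estradiol value had the same sign in 328 and was a median 2.17 times as large (quartiles 1.85 and 2.46). The comparison is therefore given as deposited and also with the vehicle column doubled. Genes past 1.5-fold (log2 0.585) in the same direction both ways are called higher or lower in both versions. The vehicle array also stood apart in its X-linked genes, and added control RNAs differed between the vehicle and estradiol arrays. The values of both follow the gene lists. The rounding steps of the vehicle numbers were also taken as finer by a factor of 2 than those of the other columns. The brightness bands explained next allow for this. Which version is nearer to the RNA of the cells was not tested.

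A gene was counted where at least 1 of its probe sets lay in the upper brightness bands. These were read from the rounding steps of the deposited numbers and stand for stored levels above 4 on the log2 scale. The finest step over all arrays set the band, and it belongs to the lowest of the levels involved. A gene that is dim on 1 array and bright on another can therefore be left out, and a place below the floor does not mean absence. This floor was passed by 20823 of the 41097 probe sets and by 12073 genes. It kept 107 of 121 probe sets for ribosomal proteins (88.4%) and 14 of 107 for olfactory receptors (13.1%), which a breast cancer line is not known to use. A gene's value averages those of its probe sets that share its brightest band.

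The label of the cells was set against marker genes. Of the 13 basal and mesenchymal breast cancer markers on the array, 12 lay above the floor, among them VIM, CD44, CAV1 and EGFR. The luminal markers PGR, FOXA1, CDH1, TFF1 and TFF3 were all below it, while 9 of 14 were above. These were GATA3, KRT8, KRT18, KRT19, EPCAM, XBP1, AGR2, SPDEF and, by a single probe set, ESR1. The differences of these 9 ran from -0.41 to 1.98 as deposited, with 1 higher by 1.5-fold or more, 0 lower and 0 higher in both versions. The leukocyte list had 2 of 9 above the floor (PTPRC, CD79A), the fibroblast list 1 of 7 (COL1A1) and the endothelial list 3 of 6 (PECAM1, VWF, KDR). As deposited the differences of these 3 lists ran from -0.40 to 0.54, none past 1.5-fold. With the vehicle doubled KDR (0.74) and PTPRC (-0.70) were past it.

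Among the genes above the floor, estradiol lay above vehicle more often than below it. As deposited, 704 of the 12073 genes (5.83%) were higher by 1.5-fold or more and 320 (2.65%) lower. With the vehicle doubled, 530 (4.39%) were higher and 232 (1.92%) lower. In both versions 283 genes (2.34%) were higher and 154 (1.28%) were lower, and no gene passed 1.5-fold in opposite directions. Without the X-linked genes, which are described further on, 586 of 11687 (5.01%) were higher and 320 (2.74%) lower as deposited. The median gene differed by 0.02 as deposited and by 0.07 with the vehicle doubled. At 2-fold in both versions, 21 genes (0.174%) were higher and 11 (0.0911%) lower. Genes just inside the rule lay between 0.5856 and 0.5874 and those just outside between 0.5840 and 0.5847, so membership near the limit has no meaning for a single gene. Over single probe sets of any brightness, 2437 of 41097 (5.93%) were higher and 1751 (4.26%) lower. Over all 54675 probe sets of the array, with or without a gene symbol, 2928 (5.36%) were higher and 3010 (5.51%) lower. The upward lean was thus not seen over the whole array.

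For the 421 genes that were higher as deposited only, whose vehicle value is above 0 by construction, the median was 0.41 for vehicle, 1.13 for estradiol and 1.04 for tamoxifen. The 283 genes higher in both versions had medians of 0.04, 0.78 and 0.71. CDH11, a mesenchymal cadherin, shows the first kind. It read 3.21 in vehicle, 6.53 with estradiol and 6.84 with tamoxifen, so the difference was 3.32 as deposited and 0.12 with the vehicle doubled. The MHC class II gene HLA-DRA (2.03, 4.42 and 3.93 in the same order) and the cystatin gene CST1 (1.99, 4.03 and 2.57) had the same form.

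**Figure D1:**
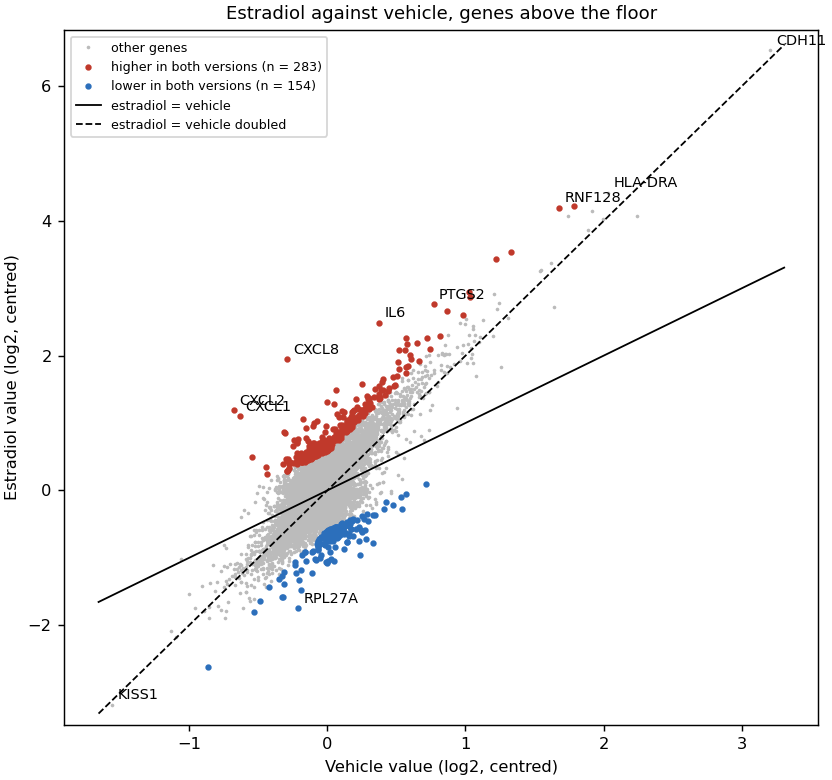
Each point is 1 gene above the brightness floor, with its deposited vehicle value (log2, horizontal axis) and its estradiol value (log2, vertical axis). Lines mark equal values and an estradiol value equal to the vehicle value doubled. Genes far to the right, such as CDH11, follow the line for the doubled vehicle, whereas CXCL8, CXCL1, CXCL2 and IL6 lie well above both lines.

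Chemokine genes had some of the largest differences that held in both versions. CXCL8 has 2 probe sets, both in the brightest band and both of types that may also detect related transcripts. One read -1.06 in vehicle, 0.77 with estradiol and 0.36 with tamoxifen, and the other 0.48, 3.12 and 2.13. Both were lowest in vehicle and highest with estradiol, although their vehicle values lay on opposite sides of the baseline. The gene differed by 2.23 as deposited and by 2.52 with the vehicle doubled. CXCL2 read -0.68, 1.19 and 0.53 on its 1 probe set above the floor, a difference of 1.87 (doubled 2.55). That probe set is of such a type too, and the other CXCL2 probe sets, both in the dimmest band, differed by -0.18 and 0.24. CXCL1 read -0.63, 1.10 and 0.74, a difference of 1.73 (doubled 2.36). In all 3 genes tamoxifen lay between vehicle and estradiol. CXCL11, a T cell-attracting chemokine induced by interferon, read 1.23, 2.69 and 1.97, and its difference fell from 1.46 to 0.23 when the vehicle was doubled. Of the 6 chemokine genes of the list above the floor, 4 were higher and 0 lower (median 1.60, against 0.02 for all genes), and 3 were higher in both versions. Over all genes 5.83% were higher and 2.65% lower as deposited, and 2.34% and 1.28% in both versions, and every list count is to be read against these shares. CCL5 differed by -0.20.

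These chemokine genes are neighbours on chromosome 4, and the order of genes there, taken from GRCh38.p14, puts CXCL8, CXCL6, PF4V1, CXCL1, PF4, PPBP, CXCL5, CXCL3 and CXCL2 in a row, followed by MTHFD2L, EPGN, EREG, AREG, BTC, PARM1 and RCHY1. Between CXCL8, CXCL1 and CXCL2, the genes CXCL6, PF4V1, PPBP and CXCL5 were in the dimmest band on every probe set. CXCL6 and PF4V1 differed by 0.35 and 0.31, PPBP by -0.11, and the CXCL5 probe sets by -0.03, 0.23 and -0.01. PF4, just under the floor, differed by -0.19. CXCL3 was just under the floor and read -0.45, 0.29 and 0.15, a difference of 0.74 (doubled 1.19). EREG, which encodes the EGF receptor ligand epiregulin, read 0.57, 2.26 and 2.48 on its probe set above the floor, a difference of 1.69 (doubled 1.12). The tamoxifen value of EREG was thus not below its estradiol value, whereas those of CXCL8, CXCL1 and CXCL2 were. Further along, RCHY1, a ubiquitin ligase gene, differed by 1.0, 0.85 and 0.24 on 3 probe sets above the floor, and PARM1 by 0.97 and 0.35. EPGN and AREG had no probe set with a single gene symbol. Of the windows of 25 neighbouring genes above the floor on chromosome 4, the one from SLC4A4 to CNOT6L had the highest median difference. This window spans CXCL8, CXCL1, CXCL2 and EREG. Its medians were 0.07 in vehicle, 0.62 with estradiol and 0.53 with tamoxifen, and its median difference was 0.40 (doubled 0.23). In it 12 genes were higher and 1 lower as deposited. Whether the chemokine values are part of a wider shift of this region was not tested.

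Among cytokine genes, IL6 read 0.37 in vehicle, 2.49 with estradiol and 1.68 with tamoxifen, a difference of 2.12 (doubled 1.75). CSF1, which encodes the macrophage growth factor M-CSF, read 0.52, 2.08 and 1.52 (difference 1.56, doubled 1.04). IL1RAP, the accessory chain of the interleukin-1 receptor, read 0.51, 1.91 and 1.87 (1.40, doubled 0.89). In the list of 11 cytokine genes above the floor 6 were higher and 2 lower (median 0.73), and in both versions 3 were higher and 1 lower. The death ligand gene TNFSF10 differed by 1.53 and TNFSF15 by 1.55 as deposited, and by 0.57 and 0.55 with the vehicle doubled, just under the rule.

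Genes of the NF-kB system went both ways. ICAM1, an adhesion molecule for leukocytes and a known NF-kB target, had 2 probe sets above the floor, which read 0.60 and 0.61 in vehicle, 1.87 and 2.02 with estradiol, and 0.78 and 0.68 with tamoxifen. The estradiol array stood apart from both others there, by 1.34 from vehicle (doubled 0.73). RELB, an NF-kB subunit that is itself induced by NF-kB, had the same order, at 0.04, 0.79 and 0.05 (difference 0.75, doubled 0.70). PTX3, a secreted pattern recognition protein, differed by 0.73 and TRAF1, an adaptor of tumor necrosis factor receptors, by 0.68, and both passed in both versions (0.78 and 0.83 doubled). NFKBIA, the inhibitor that NF-kB induces against itself, differed by 0.46 as deposited and 0.78 doubled. SOD2, the mitochondrial superoxide dismutase and usually an NF-kB target, ran the other way at 0.24, -0.59 and -1.04, a difference of -0.83 (doubled -1.07). Over the 18 genes of the list 5 were higher and 1 lower with a median of 0.06, so most members did not pass the rule.

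PTGS2 stood alone among prostaglandin genes. Its probe set above the floor read 0.77, 2.76 and 2.39, a difference of 1.99 (doubled 1.22), and a dimmer one read 0.90, 2.25 and 0.91. PTGES, the synthase that acts on the product of PTGS2, differed by 0.60 (doubled 0.26). Of 13 prostaglandin genes above the floor 2 were higher as deposited, 0 were lower and PTGS2 alone was higher in both versions.

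**Figure D2:**
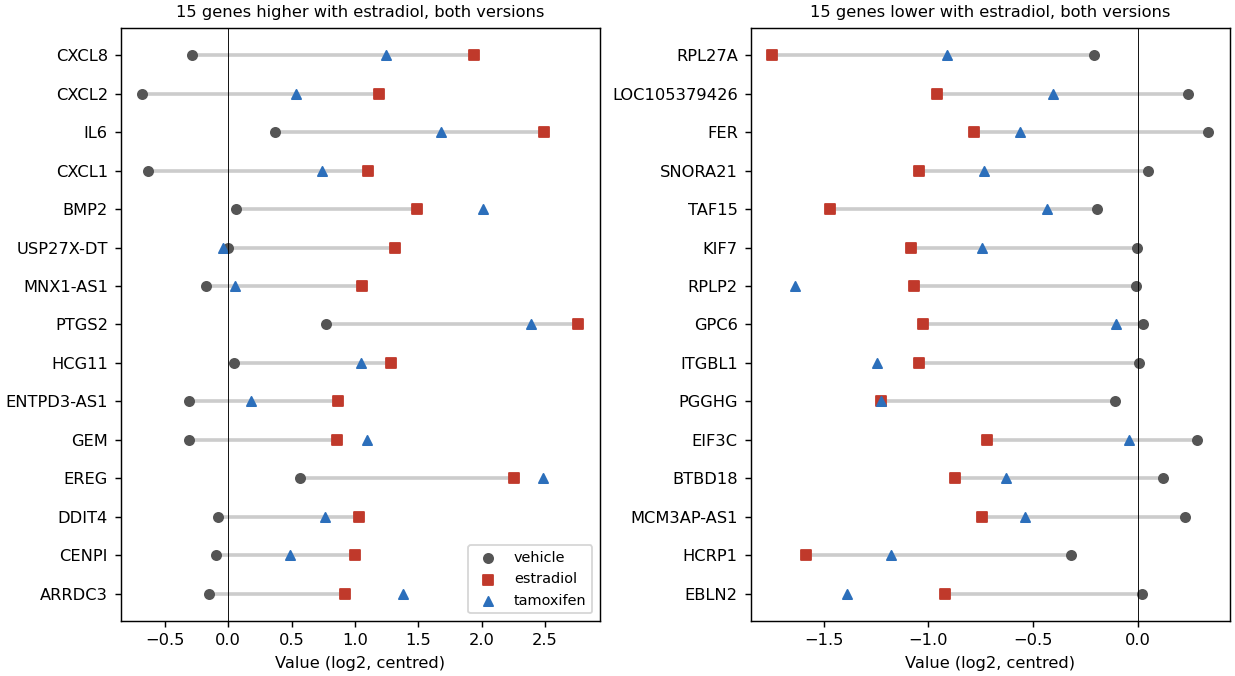
Log2 values of the 15 genes furthest above and the 15 furthest below vehicle by the smaller difference of both versions, with 1 point per array for vehicle, estradiol and tamoxifen. For CXCL8, CXCL2, IL6 and CXCL1 the estradiol point is the highest of the 3, and for BMP2, EREG, GEM and ARRDC3 the tamoxifen point is.

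Some immediate early genes were higher. FOS, a subunit of AP-1, read 0.08, 1.08 and 0.90 (difference 1.0, doubled 0.92). HES1, a repressor downstream of Notch, read 0.14, 1.02 and 1.19 (0.88, doubled 0.74), and IER3, a survival gene induced by NF-kB and ERK, read 0.02, 0.72 and 0.49 (0.69, doubled 0.67). ATF3, KLF4 and MYC passed 1.5-fold as deposited only, at 0.77, 0.76 and 0.69 (doubled 0.48, 0.36 and 0.54). Of 21 genes above the floor 6 were higher and 0 lower, with a median of 0.25. None of the 17 genes of the mRNA decay and growth arrest list, which are also induced early, passed the rule, and their median was 0.30.

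Genes known to respond to cyclic AMP had 4 of 18 higher, 0 lower and 3 higher in both versions, beside 5.83% higher and 2.34% higher in both over all genes. GEM, a small GTPase, read -0.31, 0.86 and 1.10 (difference 1.16, doubled 1.47). NR4A2, an orphan nuclear receptor induced by CREB, read -0.55, 0.50 and 1.25 (1.04, doubled 1.59). PDE10A, which degrades cyclic nucleotides, read 0.09, 0.97 and 1.30 (0.88, doubled 0.78). In each of these 3 genes the tamoxifen value was above the estradiol value and the vehicle value was lowest.

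Genes listed as feedback on ERK and related kinases had a few members past the rule. DUSP10, a phosphatase that acts mainly on the p38 and JNK kinases, differed by 0.95 and 1.01 on 2 probe sets (gene 0.98, doubled 1.20). SPRY2, an inhibitor of receptor tyrosine kinase signalling, read 0.11, 0.96 and 1.22 (0.86, doubled 0.75). SPRED2 passed as deposited only (0.76, doubled 0.52). In the ERK feedback list 4 of 21 genes were higher, 0 lower and 3 higher in both versions, with a median of 0.18. Among 7 EGF receptor ligands and receptors EREG alone was higher in both versions. TGFA, another ligand, read 1.04, 2.12 and 2.11, which gave 1.08 as deposited and 0.03 doubled, and HBEGF differed by 0.26.

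Of 19 genes induced by hypoxia and above the floor, 10 were higher, 0 lower and 8 higher in both versions, beside 5.83% higher and 2.34% higher in both over all genes. The list median was 0.66 as deposited and 0.56 doubled. DDIT4, an inhibitor of the growth kinase mTOR, read -0.08, 1.03 and 0.76 (difference 1.11, doubled 1.18). VEGFA, the main angiogenic growth factor, had 4 probe sets above the floor that differed by 0.85 to 1.60, with a median of 1.42 (doubled 0.63). NDRG1 read 0.19, 1.18 and 0.66 (0.99, doubled 0.80), and the transcriptional repressor BHLHE40 read 0.16, 1.02 and 0.76 (0.86, doubled 0.70). INSIG2, which retains sterol sensors in the endoplasmic reticulum, differed by 0.88 (doubled 0.71). The related repressor BHLHE41, a circadian clock gene, read -0.11, 0.96 and 1.0 (1.07, doubled 1.17).

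Of the glycolytic genes, many of which respond to hypoxia too, 4 of 19 were higher and 1 lower, with a median of 0.05. Over all genes 5.83% were higher and 2.65% lower. Of the 4 higher genes 2, PDK3 and PGK1, are X-linked, a group described further on. SLC2A3, a glucose transporter, differed by 0.82 (doubled 0.71) and PDK3, a kinase that holds pyruvate out of mitochondria, by 1.16 (doubled 0.82). SLC2A1 differed by 0.87 (doubled 0.41). PKM, the last enzyme of glycolysis, read 0.01, -0.65 and -1.07, a difference of -0.66 (doubled -0.67).

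Stress pathways of the endoplasmic reticulum and of amino acid supply had scattered members past the rule. DNAJB9, a chaperone cofactor of the endoplasmic reticulum, had 3 probe sets above the floor that read 0.87, 0.79 and 0.31 in vehicle and 2.47, 2.25 and 1.30 with estradiol. The 3 differed by 1.0 to 1.60, with a median of 1.46 (doubled 0.69). EDEM1, which marks misfolded proteins for removal, differed by 0.96 (doubled 0.68). In the unfolded protein response list 3 of 17 were higher, 0 lower and the median was 0.20. The ATF4 list had 4 of 21 higher and 0 lower (median 0.32), and in both versions ASNS, asparagine synthetase (0.99, doubled 0.61), and DDIT4 were higher. GDF15, a stress cytokine, differed by 1.28 (doubled 0.54).

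No estrogen receptor gene passed 1.5-fold. ESR1 is covered by 9 probe sets, of which 1 passed the floor, and that one read -0.06 in vehicle, -0.02 with estradiol and -0.77 with tamoxifen. Its estradiol difference was 0.04 and the other 8 ran from -0.32 to 0.23. The 6 probe sets of ESR2 and both probe sets of PGR were below the floor. GPER1 read 0.05, 0.08 and 0.00 and differed by 0.03. The related receptors ESRRA and ESRRB differed by 0.09 and 0.17, so 0 of the 4 receptor genes above the floor passed 1.5-fold.

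Of 32 classical estrogen-induced genes on the array 19 were above the floor, and TFF1, TFF3, PGR, GREB1, PDZK1, MYB, CXCL12 and EGR3 were among those below. TFF1, the secreted trefoil peptide, nevertheless read 1.78, 3.20 and 2.83 on its only probe set, a difference of 1.42 that became -0.36 with the vehicle doubled. GREB1 differed by 0.48, 0.32 and 0.04 on its 3 probe sets. Above the floor, CA12 (0.80), HSPB8 (0.73) and MYC (0.69) were higher and CCND1, cyclin D1, was lower (-0.59). None of the 19 passed in both versions, and their median was 0.09. SIAH2, a ubiquitin ligase, differed by 0.58 (doubled 0.61), on either side of the rule. Among 10 estrogen-repressed genes CCNG2 alone passed as deposited (0.91, doubled 0.47). Of 14 coregulators the coactivator gene NCOA1 passed in both versions at 0.59, beside a list median of -0.09.

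Enzymes that handle estradiol were mostly near 0, with 1 of 14 past the rule. This was CYP1B1, which hydroxylates estradiol and is induced through the aryl hydrocarbon receptor. It read 1.21, 2.91 and 3.16, a difference of 1.70 that shrank to 0.49 with the vehicle doubled. CYP1A1, another product of that receptor, differed by 0.22 (doubled -0.15). The AKR1C enzymes reduce steroids and other ketones, and AKR1C1, AKR1C2 and AKR1C3 differed by 0.91, 0.89 and 1.09. Their doubled values were 0.07, -0.12 and -0.55, so the last pair changed direction.

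The count of higher interferon-stimulated genes depended on the version. As deposited 14 of 29 were higher and 0 lower, with a median of 0.55, and with the vehicle doubled the median was 0.09. In both versions 2 were higher, RIGI, a sensor of viral RNA (0.27, 1.15 and 0.51, difference 0.88, doubled 0.61), and IRF1, a factor that NF-kB and interferon both induce (0.79, doubled 1.24). TRIM22 and GBP2 differed by 1.25 and 1.06 as deposited and by -0.06 and 0.09 doubled. MHC class II genes, which present antigen and are absent from most epithelial cells, had 6 of 13 higher and a median of 0.57 (doubled 0.35). Of these, HLA-DMB (1.26, doubled 0.69) and the regulator RFXAP passed in both versions. The MHC class I list had 4 of 12 higher as deposited and 0 in both versions.

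**Figure D3:**
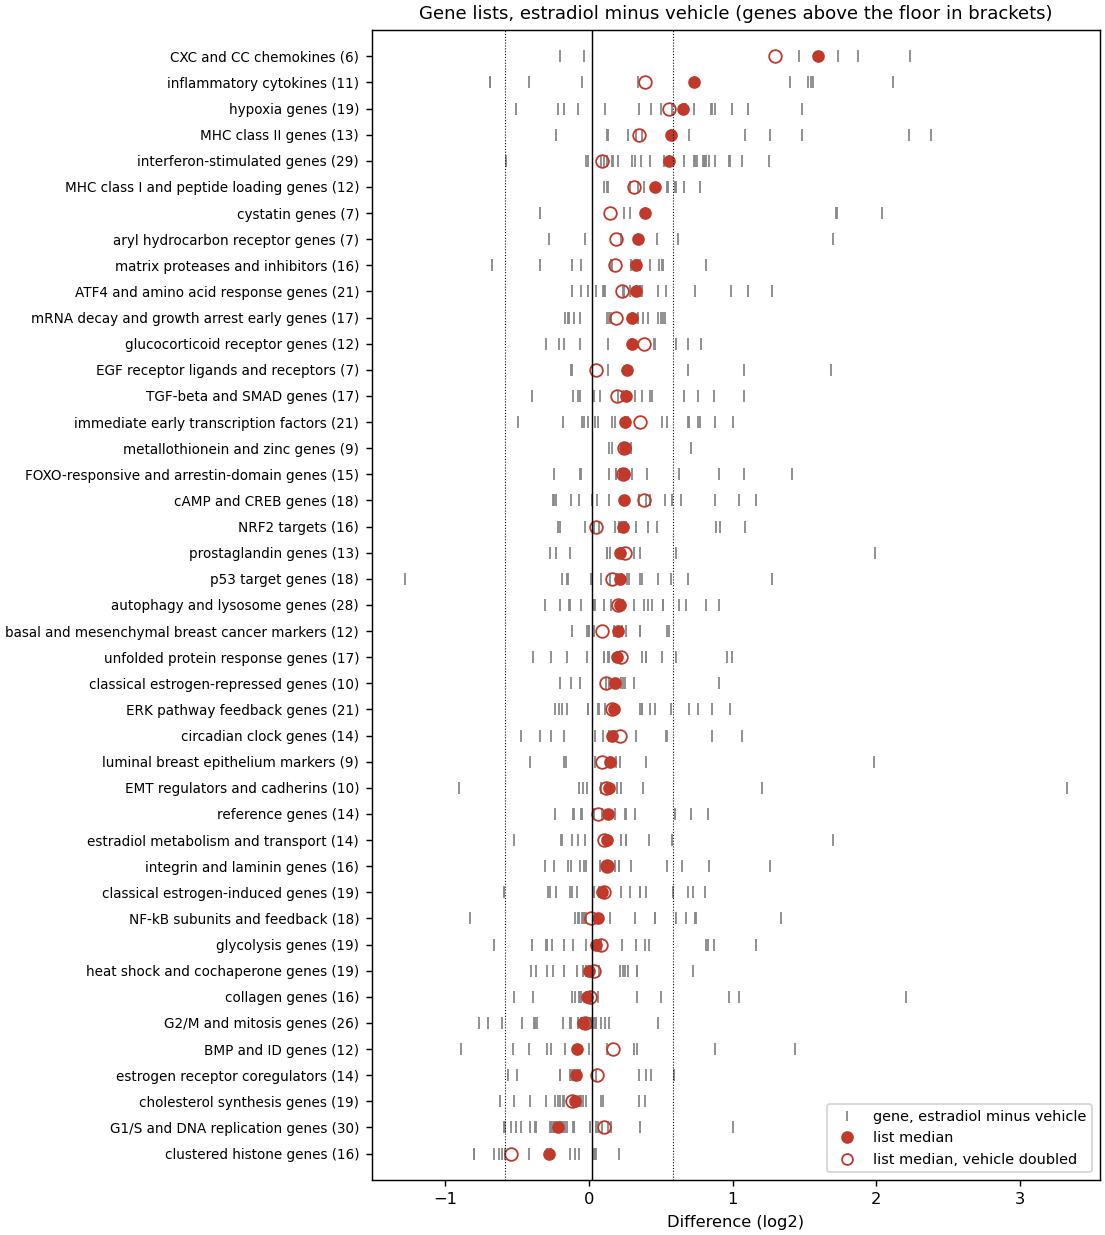
Ticks are the genes above the floor of each list and show estradiol minus vehicle (log2), with a filled point for the list's median, an open point for the median with the vehicle doubled and a line for the median of all 12073 genes. The chemokine, cytokine and hypoxia lists have the highest medians (1.60, 0.73 and 0.66), and the clustered histone list the lowest (-0.28).

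Growth factor and matrix genes added single members. BMP2, a bone morphogenetic protein, read 0.06, 1.49 and 2.01 above the floor (difference 1.43, doubled 1.37), and its dimmer probe set read 0.22, 1.20 and 2.10. BAMBI, a decoy receptor of the same pathway, differed by 0.88 (doubled 0.66). ID1, a target of BMP signalling, read -0.90, -1.79 and -1.32, which gave -0.89 as deposited and 0.01 doubled. TGF-beta genes had 4 of 17 higher as deposited, led by SMAD7 (1.08, doubled 0.54), and 0 in both versions. ITGB8, an integrin that activates TGF-beta, read 0.58, 1.84 and 2.51 (1.26, doubled 0.67). THBD, the anticoagulant receptor thrombomodulin, had 3 probe sets above the floor that read 0.30, 0.44 and 0.38 in vehicle and 1.11, 1.46 and 1.51 with estradiol (median difference 1.02, doubled 0.58). RAB27B, a GTPase of secretory vesicles, differed by 1.17 to 1.99 on 3 probe sets (median 1.42, doubled 0.65). By its brightest-band value RAB27B passed as deposited only. In CD58, an adhesion partner of T cells, VAMP3, a vesicle fusion gene, and TPD52 every probe set above the floor was above vehicle in both versions. Their medians were 1.12, 1.14 and 1.03, and that shared sign chose these genes. None of them was past 1.5-fold both ways. The doubled brightest-band values of CD58 and TPD52 were 0.19 and 0.48, and the brightest-band value of VAMP3 was 0.34 as deposited.

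FOXO factors, which act when growth factor signals fall, have targets among the higher genes, and the arrestin-domain genes were listed with them. ARRDC3, an arrestin-domain protein that sorts receptors, read -0.16, 0.92 and 1.38 (difference 1.08, doubled 1.23). FBXO32, a ubiquitin ligase induced by FOXO factors, read 0.60, 2.01 and 1.41 (1.42, doubled 0.82). In this list of 15 genes 4 were higher, 0 lower and 2 were higher in both versions. In the glucocorticoid list 3 of 12 were higher, and CEBPD alone passed in both versions (0.61, doubled 0.76).

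Several of the highest genes were noncoding. USP27X-DT read 0.00 in vehicle, 1.32 with estradiol and -0.04 with tamoxifen. MNX1-AS1 read -0.17, 1.05 and 0.06, and ENTPD3-AS1 read -0.31, 0.86 and 0.18. In the first pair the tamoxifen value lay near vehicle, and in ENTPD3-AS1 it lay between the others. Each of the 3 rests on 1 probe set above the floor. The protein-coding neighbours MNX1 and USP27X were higher in both versions as well, and whether the array's probes tell a transcript from its neighbour was not tested. HCG11, a long noncoding RNA of the MHC region, read 0.05, 1.29 and 1.05 (difference 1.24, doubled 1.20). Of 610 long noncoding RNA genes above the floor 21 were higher (3.44%) and 16 lower (2.62%) in both versions, beside 258 (2.29%) and 130 (1.15%) of 11264 protein-coding genes.

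The lower genes were smaller in number and in size. RPL27A, a ribosomal protein gene, read -0.21 in vehicle, -1.75 with estradiol and -0.91 with tamoxifen on 1 probe set, a difference of -1.53 (doubled -1.32). RPLP2, another, read -0.01, -1.07 and -1.64 (-1.06, doubled -1.05), while its dimmer probe set differed by 0.01. Of 58 ribosomal protein genes 4 were lower and 0 higher, 3 were lower in both versions, and the median of -0.02 was near that of all genes. TAF15, an RNA-binding protein, read -0.19, -1.47 and -0.43 on its brightest probe set (-1.28, doubled -1.08), and 2 others above the floor differed by -1.06 and -0.23. SNORA21, a small nucleolar RNA, read 0.05, -1.05 and -0.74 (-1.10, doubled -1.15). KIF7, a motor of the Hedgehog pathway, differed by -1.08 in both versions. EIF3C, a translation initiation factor subunit, read 0.28, -0.72 and -0.04 (-1.0, doubled -1.28). FER, a tyrosine kinase, differed by -1.11 on its brightest probe set and by -0.27 and 0.27 on 2 others, so its probe sets disagreed. GPC6, a cell surface proteoglycan, read 0.03, -1.03 and -0.10 and differed by -1.05 (doubled -1.08). ITGBL1 read 0.01, -1.04 and -1.25 and differed by -1.05 (doubled -1.06). The estradiol array was the lowest of the 3 for RPL27A, TAF15, KIF7, EIF3C, FER and GPC6, and the tamoxifen array for RPLP2 and ITGBL1.

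Some genes had several probe sets above the floor that all lay below vehicle. The genes of this paragraph were chosen by that shared sign. HELLS, a chromatin remodeller needed for DNA methylation, had 4 above the floor that read -0.56, -0.48, -0.22 and 0.00 in vehicle and -2.26, -1.23, -1.32 and -0.74 with estradiol. All 4 were lower by at least 0.74, with a median of -0.92 (doubled -0.81). EDN1, the vasoconstrictor endothelin 1, had 3 that differed by -1.20, -0.74 and -0.18, the last being its brightest and thus its gene value, which is within the rule. The kinase gene STK4 had 4, with a median of -0.71 (doubled -0.53), but its brightest-band value was -0.03 in both versions. GABPB1-AS1, an antisense transcript, had a median of -0.69 (doubled -0.68). GTSE1, a mitotic regulator, had a median of -0.75 that became -0.20 with the vehicle doubled.

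Of 16 clustered histone genes 5 were lower, 0 higher and 4 lower in both versions, beside 2.65% lower and 1.28% lower in both over all genes. Their median was -0.28 (doubled -0.54). H1-2, a linker histone, read -0.07, -0.87 and -1.81, and H2AX, the variant that marks DNA breaks, read 0.53, -0.09 and -0.34 (difference -0.63, doubled -1.16). Tamoxifen values of both were below the estradiol values. The G1/S list had 1 of 30 higher and 2 lower with a median of -0.22 that became 0.10 doubled. In the G2/M list 3 of 26 were lower, again beside 2.65% of all genes, and AURKB, a mitotic kinase, was lower in both versions (-0.77, doubled -0.90). Of 19 cholesterol synthesis genes MVD alone was lower (-0.62, doubled -0.68).

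**Figure D4:**
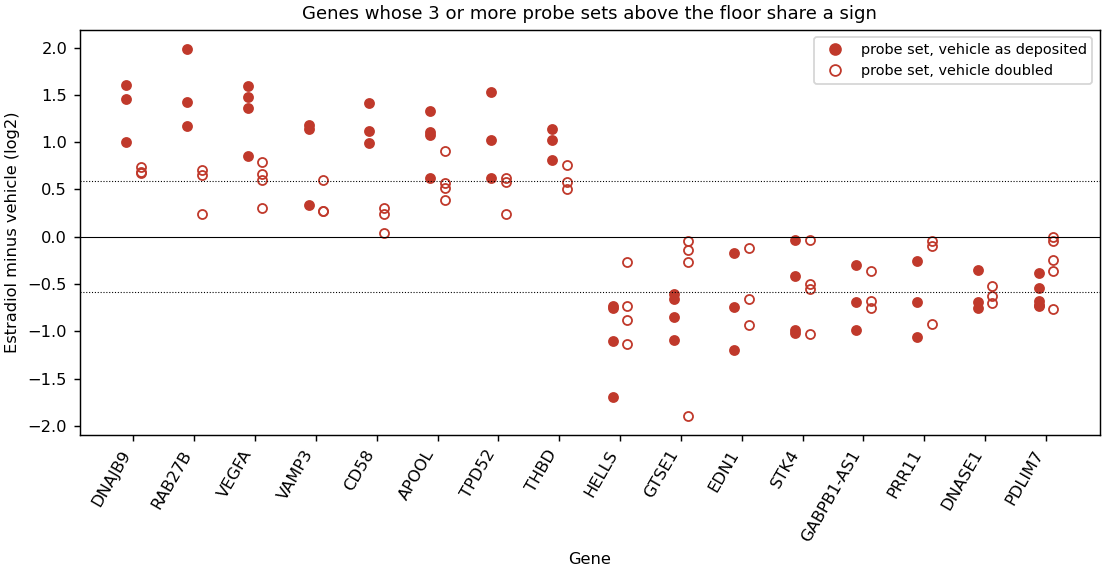
Estradiol minus vehicle (log2) for every probe set above the floor of the genes with at least 3 such probe sets that share a sign in both versions, as deposited and with the vehicle doubled. The 8 highest and 8 lowest genes by the median probe set are shown. The shared sign chose the genes and is no result. It was met by 533 of 2170 genes with at least 3 probe sets above the floor, 368 of them positive and 165 negative.

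Agreement between probe sets of 1 gene gives a further view of the error. Of 5370 genes with at least 2 probe sets above the floor, 2805 (52.2%) had differences of a single sign, and the probe sets of a gene spanned a median of 0.35. Among genes higher in both versions with several probe sets, 63 of 73 (86.3%) had a single sign and 27 (37%) had every probe set past 1.5-fold. Among genes lower in both versions this was 32 of 52 (61.5%) and 4 (7.69%). The lower genes thus rest more often on 1 probe set of several. These shares describe probe sets on the same 2 arrays, which are not replicates, and the same values chose the genes.

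X-linked genes lay above vehicle far more often than autosomal genes, a split that was made after the data had been seen. Of 386 X-linked genes above the floor 118 (30.6%) were higher with estradiol by 1.5-fold or more and 0 were lower, against 583 (5%) and 318 (2.73%) of 11661 autosomal genes. With the vehicle doubled 47 X-linked genes were higher and 5 lower, and in both versions 39 (10.1%) were higher and 0 lower, against 243 (2.08%) and 153 autosomal genes. The X-linked median was 0.09 in vehicle, 0.46 with estradiol and 0.41 with tamoxifen. The median difference was 0.38 (doubled 0.26), against 0.01 (doubled 0.07) on the autosomes, and 326 of the 386 genes (84.5%) lay above vehicle. X-linked genes are 3.2% of the genes above the floor, and they made up 16.8% of those higher as deposited and 13.8% of those higher in both versions. The tamoxifen array had nearly the same X-linked median as the estradiol array, and the estradiol minus tamoxifen median was 0.04, so the difference lies between the vehicle array and both others.

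The difference was seen along the whole chromosome and was uneven. When the X-linked genes were taken in gene order in 8 parts, the medians were 0.37, 0.50, 0.18, 0.31, 0.47, 0.64, 0.37 and 0.19, and at least 77.1% of the genes of each part lay above vehicle. In windows of 25 neighbouring genes the X medians ran from 0.10 to 0.78 over 362 windows, and the autosomal ones from -0.44 to 0.44 over 11133. In the sixth part 27 of 48 genes (56.2%) were higher. It holds RADX (0.87, 2.66 and 2.80) and RNF128 (1.68, 4.20 and 4.57), a ubiquitin ligase of T cells, which are neighbours, then RBM41 and NUP62CL (0.57, 2.17 and 1.41). A little further PSMD10, ATG4A, COL4A5 and NXT2 were higher in both versions within a span of 7 genes. COL4A5, a basement membrane collagen, read 1.33, 3.54 and 3.40 (difference 2.21, doubled 0.88). CENPI, a centromere protein, read -0.10, 1.0 and 0.49 on its brightest probe set (1.10, doubled 1.20) and differed by 0.30 on a dimmer one.

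Several genes described above are X-linked, among them USP27X-DT, its neighbour USP27X (0.86, doubled 0.80), CENPI, COL4A5 and PDK3. So is APOOL, a mitochondrial protein whose 4 probe sets differed by 0.62 to 1.33. The reference genes PGK1 (0.83, doubled 0.13) and HPRT1 (0.71, doubled 0.55) are X-linked too and were 2 of the 3 reference genes past the rule, the other being B2M (0.60, doubled 0.32). The reference list had a median of 0.14 over 14 genes and 0.06 without its X-linked members. GAPDH read -0.08, -0.19 and -0.25 and ACTB 0.08, 0.03 and -0.26. TSC22D3, a glucocorticoid target (0.78, doubled 0.58), and LAMP2, a lysosomal membrane protein (0.90, doubled 0.53), are X-linked as well.

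Among the autosomes chromosomes 4, 18, 21 and 8 had the most higher genes (12.6%, 10.3%, 9.16% and 8.78%), and chromosomes 16, 17, 22 and 19 the fewest (1.29%, 1.96%, 1.98% and 2.29%). Medians ran from -0.10 on chromosomes 19 and 22 to 0.14 on chromosomes 4, 18 and 21. Promoter GC content and gene span were set beside the values. In 4 bins of promoter GC content, from low to high, autosomal medians were 0.04, 0.01, 0.01 and 0.01 and X-linked medians 0.42, 0.42, 0.45 and 0.35. In 4 bins of gene span, from short to long, they were -0.04, 0.01, 0.03 and 0.06 on autosomes and 0.33, 0.34, 0.44 and 0.50 on the X. The X-linked share at least 1.5-fold higher was 28.1%, 17.4%, 34.2% and 42% in the bins of span, against 4.5%, 4.05%, 4.53% and 6.93% on autosomes. The part of span and GC content in the X-linked values was not tested. With 1 culture per group, culture and treatment cannot be told apart.

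**Figure D5:**
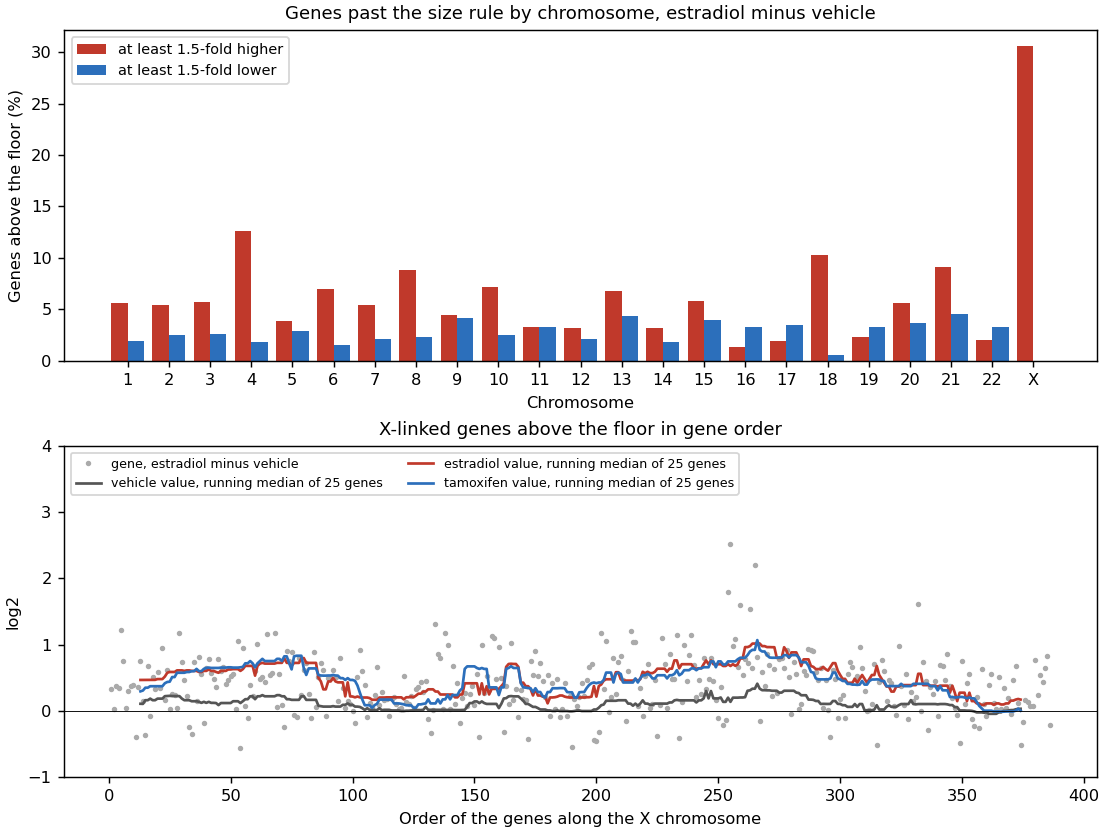
The upper panel gives the percentage of genes above the floor that were at least 1.5-fold higher or lower with estradiol, by chromosome. The lower panel gives X-linked genes in gene order, as points for estradiol minus vehicle (log2) and lines for the running median of 25 genes on each array. The X bar reaches 30.6%, and the estradiol line runs above the vehicle line throughout.

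Beyond the X, genes higher in both versions that lay close together included RASSF8 and BHLHE41, which are adjacent on chromosome 12, BHLHE40 and EDEM1 with 1 gene between them on chromosome 3, and CRLS1 and BMP2 with 2 between them on chromosome 20. Adjacent genes lower in both versions were PIDD1, a p53 target (-0.53, -1.81 and -1.26), and RPLP2 on chromosome 11.

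The arrays also carry probe sets for added control transcripts, and these were not members. The 27 probe sets for poly-A control RNAs, which are added to the sample before labelling, had medians of 0.47 in vehicle and 1.45 with estradiol. They differed by a median of 0.99 (doubled 0.44), and 24 of 27 were past 1.5-fold. The 18 probe sets for hybridisation controls, added after labelling, differed by 0.18 and 0 passed. The poly-A control values were thus higher on the estradiol array, and their part in the gene values was not tested.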

How the data were processed

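Total RNA of the MDA-MB-231 cultures received a biotin label and was hybridised to Affymetrix arrays, per the labels' protocols. The deposited values, taken here as log2 numbers, stand in 3 columns, 1 per array, and the submitters' processing notes name RMA without a version. The base of the logarithm, the direction and the baseline on which the values are centred are not given in the sources used here. The column medians over the members were -0.04, -0.02 and -0.01 for vehicle, estradiol and tamoxifen. The depth of an array has no count, and brightness was used in its place: the stored steps of the deposited numbers put each probe set in a band of levels of 8 to 16, 4 to 8, 2 to 4 or below 2, and the first pair of bands counted as above the floor.

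The platform annotation gave 41097 probe sets 1 gene symbol, 1801 several symbols and 11777 no entry. Looked up in the current RefSeq table, 0 symbols changed. Chromosome and gene order came from that table, on GRCh38.p14. A gene value averaged its probe sets of the brightest band, several for 3480 genes. Estradiol minus vehicle was computed per probe set as deposited and with the vehicle column doubled. No test was run, because each group has 1 array. Genes were taken by size, at 1.5-fold.

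Named genes are the 15 largest and 15 smallest by the smaller difference of both versions, the 8 highest and 8 lowest with at least 3 probe sets of 1 sign, up to 5 members per list with the largest differences, and ESR1, ESR2, GPER1, PGR, TFF1, GREB1, GAPDH and ACTB. Others, such as members that make up a small count and the X-linked and neighbouring genes, were picked once their values had been seen. The members, the 47 lists and the rule were chosen with earlier results of these data known. The calculations used Python 3.11.15 with pandas 2.3.3 and numpy 2.4.6. The bands and the difference with the vehicle doubled were tested on simulated data whose vehicle values had been divided by 2. The difference as deposited was not covered by that test. Alternatives covered the scaling of the vehicle, centring, the floor, the probe sets averaged and the size rule.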

Additional observations from a re-analysis of the deposited data

Results flagged for a closer look

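The poly-A control RNAs, which are no genes of the cells, gave a signal outside the main measurement. Their 27 probe sets had a median estradiol minus vehicle difference of 0.99 (doubled 0.44), beside 0.02 for the genes above the floor, and the 18 probe sets of the hybridisation controls had 0.18.

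Probe sets that the annotation did not name were also outside the main measurement. Of 2773 above the floor 113 were higher with estradiol by 1.5-fold or more and 429 were lower, so they leaned down where the named genes leaned up. Their median was -0.09 (doubled -0.02).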

How the results depend on the processing

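No paired analysis was possible because each group has 1 array. As deposited 704 genes were higher and 320 lower at 1.5-fold. The counts were 530 and 232 with the vehicle doubled, 610 and 265 with the vehicle scaled to the SD of estradiol, 642 and 359 with the differences centred on their median, 495 and 214 with all probe sets of a gene averaged, and 523 and 220 where every probe set above the floor had to pass. Without probe sets of cross-reacting types they were 515 and 256 (of 8983 genes), with no floor 1001 and 471 (of 19775 genes), and without X-linked genes, an alternative added after the data were seen, 586 and 320. In the brightest band, which tests fewer genes (4986), they were 253 and 110, and at 2-fold 132 and 28. Of the 148 named genes past the rule, 78 (52.7%) were still past it with the vehicle doubled and 113 (76.4%) with all probe sets averaged. Some were named by their differences in both versions, so the share with the vehicle doubled was partly fixed in advance. Over all genes past the rule it was 40.2% of the higher and 48.1% of the lower. With the vehicle doubled AKR1C2 (-0.12), AKR1C3 (-0.55), COL6A1 (-0.072), TRIM22 (-0.058), ID1 (0.005) and MCM5 (0.10) changed direction, and without cross-reacting types COL6A1 did (-0.0093). The cause was not tested. Signal over background limits genes below the floor, where 683 of 12846 probe sets in the 2 to 4 band were higher and 694 lower.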
